A study of Mus musculus with 69 samples.

Results

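Imprinted genes are expressed mainly from the chromosome inherited from a single parent, so in the cells of a hybrid mouse their RNA lies mostly on a single parental allele. The 10 genes described here, out of 24527 listed in the allele tables, were chosen by symbol: Igf2r, Cdkn1c, H13, Peg13, Zrsr1, Impact, Kcnq1ot1, Plagl1, Ndn and Mest. All 10 were listed in both F1 tables and in the parental table. All 10 were above 0 in at least 1 library of the C57 × SPRET cross, against 2 (Igf2r and Peg13) in the C57 × NOD cross.

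RNA was sequenced from bone marrow–derived macrophages (BMDMs), which are macrophages grown in culture from bone marrow, here from mice aged 8 to 12 weeks. Cells were left untreated (basal) or were given interleukin-4 (IL-4) at 20 ng/ml for 24 hours, a cytokine that turns macrophages towards a repair program. C57 is C57BL/6J, the common inbred laboratory strain, NOD is an inbred strain prone to diabetes, and SPRET is derived from the wild species Mus spretus. F1 mice, which carry a full set of chromosomes from each parent, came from the crosses C57 × SPRET and C57 × NOD, with 2 basal and 2 IL-4 libraries each. Each F1 library has a value for the C57 allele and a value for the allele of the other strain. The parental table has 3 basal and 3 IL-4 libraries each of C57, BALB, NOD and SPRET and, for PWK, 2 basal and 3 IL-4 libraries. C57 and SPRET cells were also followed at basal and after 1, 6 and 24 hours of IL-4, as were Egr2fl/fl cells and cells in which LyzM-Cre, active in myeloid cells, deletes Egr2 from the same floxed allele, with 2 libraries in each group. The sources used here do not give the direction of either cross, so that parent of origin and strain sequence cannot be told apart in these data. The methods call the libraries biological replicates without saying whether each came from a separate mouse, and p-values measure the spread between these libraries only.

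In imprinting, methylation laid down in the egg or the sperm marks a control region on the chromosome of that parent, and the mark persists in the body cells of the offspring. At many clusters a long noncoding RNA is transcribed from the unmethylated chromosome and keeps neighboring genes silent there. Airn acts in this way on Igf2r, and Kcnq1ot1 on Cdkn1c. The zinc finger protein ZFP57 protects the mark at many control regions by binding the methylated hexamer TGCCGC. Igf2r, Cdkn1c and the long forms of H13 are known as maternally expressed, and Peg13, Zrsr1, Impact, Kcnq1ot1, Plagl1, Ndn and Mest as paternally expressed. In textbook accounts some of these patterns are limited to certain tissues or transcript forms.

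The sequence just upstream of the start is shown for 4 members, because it contrasts members with and without the ZFP57 hexamer. An entry was found for 7 of the 10 members among RefSeq promoter sequences (GRCm38.p6). Hexamers on either strand are in capitals, written TGCCGC on the forward reading and GCGGCA where the match is on the opposite strand. The sequences run 5′ to 3′ on the strand of the gene.
Igf2r, chr17:12769707-12769956, minus strand: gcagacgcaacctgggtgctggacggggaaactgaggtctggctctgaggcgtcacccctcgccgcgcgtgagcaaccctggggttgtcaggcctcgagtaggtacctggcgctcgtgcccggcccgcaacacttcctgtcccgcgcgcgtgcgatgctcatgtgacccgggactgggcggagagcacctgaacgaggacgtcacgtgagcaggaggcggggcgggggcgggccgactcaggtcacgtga
Kcnq1ot1, chr7:143296548-143296797, minus strand: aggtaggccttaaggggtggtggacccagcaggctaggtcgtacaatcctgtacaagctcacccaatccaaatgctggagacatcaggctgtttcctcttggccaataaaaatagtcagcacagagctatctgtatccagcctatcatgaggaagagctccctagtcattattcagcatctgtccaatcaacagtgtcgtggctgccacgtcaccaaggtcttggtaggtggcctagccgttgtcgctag
Plagl1, chr10:13090582-13090787, plus strand: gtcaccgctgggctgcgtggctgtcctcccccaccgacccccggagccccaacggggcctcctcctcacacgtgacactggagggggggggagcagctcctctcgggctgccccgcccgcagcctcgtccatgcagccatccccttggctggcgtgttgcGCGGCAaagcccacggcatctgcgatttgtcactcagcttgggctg
Mest, chr6:30737803-30738052, plus strand: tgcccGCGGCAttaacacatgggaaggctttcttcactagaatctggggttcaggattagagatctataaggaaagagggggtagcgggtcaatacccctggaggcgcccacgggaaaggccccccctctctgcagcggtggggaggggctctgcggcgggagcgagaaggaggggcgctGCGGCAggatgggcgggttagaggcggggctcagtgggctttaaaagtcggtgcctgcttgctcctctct
In the 250 bases before the start, Plagl1 held the hexamer 1 time and Mest 2 times, while Igf2r, Kcnq1ot1, H13, Zrsr1 and Ndn held none. For Plagl1 the 206 bases upstream of the gene start in the deposited tables are printed, and for Mest the start used is 1 of several in RefSeq. The hexamer was present in 8.59% of 27025 promoters of this length. CpG dinucleotides, the bases that carry the methylation, numbered 27 before Igf2r, 19 before Plagl1, 18 before H13, 14 before Mest, 8 before Zrsr1, and 5 each before Kcnq1ot1 and Ndn, against a median of 6 and a 90th percentile of 25 over all promoters. Whether these windows lie in the control regions was not examined, and a missing hexamer says only that these letters were not in the window.

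The C57 × SPRET columns held 4.69 to 5.43 M recovered reads (M, 1e+06 reads), except for the SPRET column of IL-4 replicate 2 with 11.1 M, which is 2.08 times its C57 column against 0.971 to 0.973 in the other 3 libraries. The C57 × NOD columns held 0.150 to 0.351 M, and 78.9 to 83.6% of genes were at 0 in them. A recovered read is a unit of count read back from the steps of the deposited values, which carry the authors' allele weighting. Values of 0 and intervals from such reads cover counting error only. The 7 macrophage markers had a mean of at least 1 in the parental and C57 × SPRET tables, with a summed level of 54720 to 79440 in C57 × SPRET, whereas Adgre1, Cd68, Itgam and Lyz2 were listed at 0 in C57 × NOD. These genes are high in macrophages of any kind, and a 0 in the C57 × NOD table was therefore not read as a silent gene. Of the lists for other cell types, the highest summed levels in C57 × SPRET were 25.4 to 61.6 for 4 neutrophil genes and 2.66 to 7.01 for 6 fibroblast and stromal genes. In C57 × NOD the neutrophil genes summed to 242 to 367 and 3 mast cell and basophil genes to 33.3 to 114, against 1955 to 2583 for the macrophage markers. In the 5 strains the neutrophil genes summed to 14.5 to 589. The part of other cell types in the results was not tested. Fewer cells of a type and less RNA per cell cannot be told apart in bulk libraries.

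The allele values of 1 library share its cells and its depth, so the comparison was made within each library. The C57 share is the C57 value in percent of the sum of both allele values. The tested quantity is the difference log2(C57 value + 1) minus log2(SPRET value + 1), which is positive where the C57 allele was higher and understates differences of genes with low values. The median C57 share over all genes was 48.8 to 49.8% in the 4 C57 × SPRET libraries, so the alleles were balanced on the whole. For a scale of low allele shares in this table, genes nearly absent in 1 parent were taken, a choice made after values were seen. They had at least 5 TPM (a transcript level scaled by length and depth) in every library of one parent and at least 50 times less in the other. Whether the allele of the parent with little RNA is silent in F1 cells was not tested, so these shares may include expressed alleles. Of 29 genes nearly absent in SPRET, 23 to 26 had allele values summing to at least 1 in a library. Their median share of the SPRET allele was 10.0 and 10.2% in basal cells, 9.34% in IL-4 replicate 1 and 27.9% in IL-4 replicate 2. The upper quartiles were 17.1, 21.0, 18.7 and 37.8% in the same order. Of 43 genes nearly absent in C57, 37 to 38 had such values in a library. Their median share of the C57 allele was 6.32 and 6.15% in basal cells and 4.53 and 7.11% after IL-4, with upper quartiles of 17.2, 17.7, 17.9 and 19.2%. In IL-4 replicate 2 the SPRET allele thus held more of genes that SPRET parents hardly express. The IL-4 differences of Igf2r, Cdkn1c and Zrsr1 are also given without this library, but not every result that uses it is.

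In basal F1 C57 × SPRET BMDMs, 7 of the 10 members differed between alleles past the threshold (limma, adjusted p under 0.05 and over 2-fold), against 7.88% of the 12256 genes tested. The members were chosen with earlier results of these data known, so the shares over all genes are set beside them as a description only. Igf2r and Cdkn1c were higher on the C57 allele, as were 3.52% of all genes, and Peg13, Zrsr1, Impact, Kcnq1ot1 and Plagl1 were higher on the SPRET allele, as were 4.36%. The 2 called members higher on C57 are known as maternally expressed, and the 5 higher on SPRET as paternally expressed. Of the members not called, H13 was even (-0.02) and Mest, known as paternally expressed, was at 0.19. Cdkn1c had the same direction between the parents (2.25). Parent of origin and strain sequence cannot be told apart here. After IL-4, 4 of the 10 passed, against 5.45% of all genes (2.24% higher on C57 and 3.21% higher on SPRET), and these were Peg13, Zrsr1, Impact and Kcnq1ot1, again higher on SPRET. The basal count rests on both basal libraries, since 1 member passed without basal replicate 1 and 0 without basal replicate 2, when the remaining library has no replicate and is assumed to vary like the IL-4 libraries. With no filter on low values 5 passed in basal cells, as Igf2r (adjusted p = 0.085) and Cdkn1c (adjusted p = 0.148) were lost in limma, and 0 passed after IL-4.

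**Figure D1:**
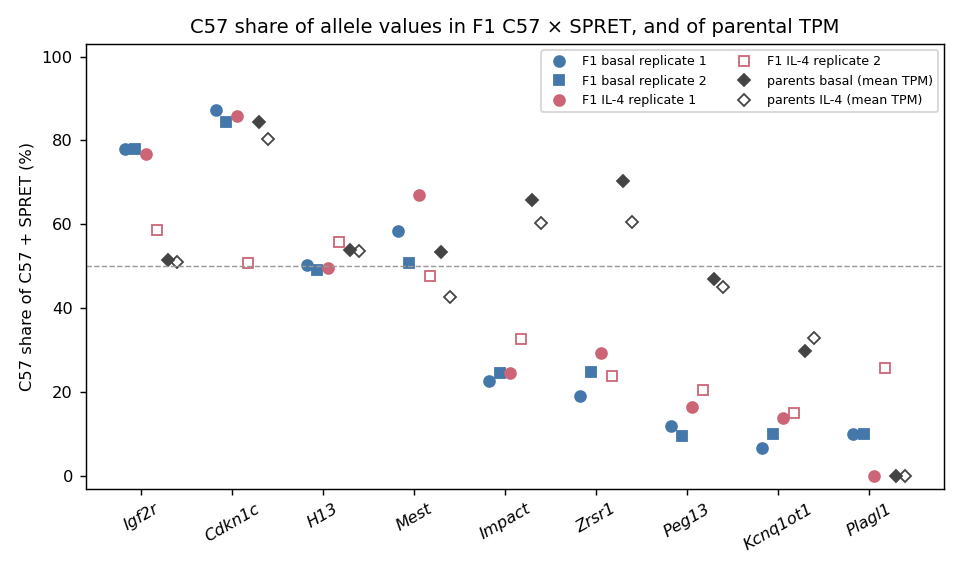
C57 share (percent of C57 plus SPRET) of 9 members, all but Ndn, in the 4 F1 C57 × SPRET libraries (circles and squares) and in the mean TPM of the parents (diamonds), with a dashed line at equal values. Igf2r and Cdkn1c lie on the C57 side, except that IL-4 replicate 2 moves them to 58.7 and 50.9%, while Peg13, Zrsr1, Impact, Kcnq1ot1 and Plagl1 lie on the SPRET side in every library and H13 is at 49.1 to 55.7%.

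Igf2r encodes the receptor that takes up insulin-like growth factor II for breakdown and carries lysosomal enzymes. It lies on chr17:12682406-12769706, minus strand (mm10). In basal cells the C57 allele read 40.6 and 44.7 and the SPRET allele 11.5 and 12.6, which are C57 shares of 77.9 and 78.0%. After IL-4 the C57 allele read 27.7 and 29.8 and the SPRET allele 8.42 and 21.0, which are shares of 76.7 and 58.7%. Every C57 value lay above every SPRET value. The log2 difference was 1.74 (SE 0.26, adjusted p = 0.0136) in basal cells and 1.05 (SE 0.26, adjusted p = 0.060) after IL-4, the latter short of the threshold. Without IL-4 replicate 2 it was 1.61 with adjusted p = 0.0044. The SPRET share outside that library, near 22 to 23%, was above the median of 9.34 to 10.2% in genes nearly absent in SPRET. It lay closer to their upper quartiles of 17.1 to 21.0%.

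Airn, the noncoding RNA that silences Igf2r in cis, starts inside Igf2r and runs on the opposite strand, and their spans overlap over 32.5% of Igf2r. Its balance was the reverse of that of Igf2r. The C57 allele of Airn read 0.713 and 0.646 in basal cells and 0.523 and 0.918 after IL-4, and the SPRET allele read 3.20 and 3.24, then 4.84 and 3.16, so the C57 share was 18.2, 16.6, 9.76 and 22.5%. The log2 difference was -1.33 (SE 0.20, adjusted p = 0.0146) in basal cells and -1.53 (SE 0.20, adjusted p = 0.0144) after IL-4. In the C57 × SPRET table the gene length equals the genomic span for 99.5% of genes, so introns were counted, and reads of the shared stretch can go to either gene because the strand used for counting is not given in the sources used here.

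Cdkn1c encodes the cell cycle inhibitor p57 and lies at chr7:143458339-143461050 on the minus strand. It had the highest summed allele values of the members, but these are divided by the genomic span, 2711 bases for Cdkn1c against 87300 for Igf2r. By recovered reads over the libraries, Igf2r (8907 C57 and 4914 SPRET) and H13 (4103 and 4817) were above Cdkn1c (883 and 364). In basal cells the C57 allele of Cdkn1c read 167 and 175 against 24.3 and 32.4 for SPRET, shares of 87.3 and 84.4%. After IL-4 the libraries parted, with 70.5 against 11.7 in replicate 1 (85.8%) and 56.0 against 54.1 in replicate 2 (50.9%). This gave a log2 difference of 2.56 (SE 0.56, adjusted p = 0.0355) in basal cells and of 1.27 (SE 0.56, adjusted p = 0.193) after IL-4, and without IL-4 replicate 2 the latter was 2.49 (adjusted p = 0.0107).

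Kcnq1ot1 is the noncoding RNA of the same imprinted cluster, transcribed from within an intron of Kcnq1 on the opposite strand, at chr7:143213111-143296547. Its values were low because they are divided by a span of 83436 bases. The C57 allele read 0.214 and 0.292 in basal cells and 1.05 and 0.871 after IL-4, and the SPRET allele read 2.95, 2.64, 6.57 and 4.90 in the same libraries. The C57 share was thus 6.77, 9.97, 13.8 and 15.1%, and the lowest SPRET value was above the highest C57 value. The recovered reads were 11, 17, 70 and 58 for C57 and 142, 145, 415 and 681 for SPRET. The log2 difference was -1.60 (SE 0.11, adjusted p = 0.0025) in basal cells and -1.77 (SE 0.11, adjusted p = 0.0027) after IL-4. Kcnq1, the potassium channel gene that contains Kcnq1ot1, held nearly the same reads, with 2, 4, 6 and 11 C57 reads and 2, 0, 2 and 10 SPRET reads outside Kcnq1ot1, so its row gives no separate measure of the channel gene. Cdkn1c and Kcnq1ot1, which are known to be expressed from opposite chromosomes, thus lay on opposite alleles in these libraries, apart from the even split of Cdkn1c in IL-4 replicate 2.

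Peg13 is a noncoding RNA that lies wholly within an intron of Trappc9 on the same strand, at chr15:72805600-72810324. The C57 allele read 14.1 and 11.5 in basal cells and 9.31 and 8.76 after IL-4, against 104 and 109, then 47.3 and 34.1, on the SPRET allele. The C57 share was 11.96, 9.58, 16.5 and 20.5%. As tested, the difference was -2.96 (SE 0.14, adjusted p = 0.0012) in basal cells and -2.04 (SE 0.14, adjusted p = 0.0038) after IL-4. Trappc9, which encodes a subunit of a vesicle trafficking complex, was less unequal, with a basal log2 difference of -0.62 that did not pass the 2-fold limit. When the reads of Peg13 were taken off, the C57 share of reads in the rest of Trappc9 was 47.8 and 47.8% in basal cells and 53.6% in IL-4 replicate 1. It was 32.8% in IL-4 replicate 2, where the SPRET column holds 2.08 times the reads of the C57 column.

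Zrsr1 is a copy of the splicing factor gene Zrsr2 that arose by retrotransposition and sits in an intron of Commd1, on the opposite strand, at chr11:22972005-22976496. The C57 allele read 9.04 and 11.2 in basal cells and 13.2 and 10.9 after IL-4, and the SPRET allele read 38.2, 33.8, 31.8 and 34.9. The C57 share was 19.1, 24.9, 29.3 and 23.8%. All 4 SPRET values were above all 4 C57 values, with log2 differences of -1.74 (SE 0.17, adjusted p = 0.0047) and -1.40 (SE 0.17, adjusted p = 0.0111). After IL-4 the call was lost without IL-4 replicate 2, at -1.21 with adjusted p = 0.054, and without basal replicate 1 or 2, at -1.40 with adjusted p = 0.0505 and 0.0504. Commd1, which regulates copper handling and NF-κB, had C57 shares of 52.6, 58.9 and 54.3% in its reads outside Zrsr1, and 36.0% in IL-4 replicate 2.

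Impact encodes a regulator of the GCN2 kinase, which senses amino acid shortage. The C57 allele read 10.6 and 11.6 in basal cells and 7.22 and 9.15 after IL-4, and the SPRET allele read 36.2, 35.8, 22.2 and 18.8. The C57 share was 22.6, 24.6, 24.5 and 32.7%. On the log2 scale Impact gave -1.61 (SE 0.15, adjusted p = 0.0042) in basal cells and -1.23 (SE 0.15, adjusted p = 0.0111) after IL-4. The IL-4 call was lost without IL-4 replicate 1 (-0.97) and without either basal library (-1.23 in both). For Zrsr1 and Impact the lower allele held 19.1 to 32.7% over the 4 libraries, above the median of 4.53 to 7.11% in genes nearly absent in C57. The upper quartiles of those genes were 17.2 to 19.2%, near the lowest of these shares.

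Plagl1, a zinc finger transcription factor that restrains growth, was near the lower limit. Its C57 allele read 0.198 and 0.140 in basal cells and 0 and 0.184 after IL-4, against 1.78, 1.26, 0.485 and 0.529 on SPRET. These rest on 5, 4, 0 and 6 C57 reads and 42, 34, 15 and 36 SPRET reads. The 0 of 15 reads in IL-4 replicate 1 allows a C57 share of up to 20.0%. The log2 difference was -1.10 (SE 0.18, adjusted p = 0.0177) in basal cells and -0.47 (SE 0.18, adjusted p = 0.156) after IL-4.

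Ndn, a growth suppressor known from neurons, had 0 C57 reads in all 4 libraries and 0, 2, 3 and 2 SPRET reads, at or under the 3 counts that a 0 allows, so no fold is given. Mest encodes an enzyme of the hydrolase family linked to fat cell growth. Its C57 allele read 2.81 and 1.65 in basal cells and 1.81 and 1.20 after IL-4, and its SPRET allele 2.00, 1.60, 0.888 and 1.33, from 7 to 23 reads. The C57 share of 58.5, 50.8, 67.1 and 47.6% fell on both sides of the middle, and the log2 differences of 0.19 and 0.25 (SE 0.25) did not pass. A total of 22 to 33 reads for both alleles limits what could be seen for Mest.

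H13 encodes signal peptide peptidase and is known to be imprinted through the choice between short and long transcripts. Its alleles were nearly even in basal cells, at 33.3 and 30.2 for C57 and 33.0 and 31.3 for SPRET, from 747 to 827 reads per allele. After IL-4 the C57 allele read 38.9 and 40.2 and the SPRET allele 39.6 and 31.9. The C57 share of 50.3, 49.1, 49.5 and 55.7% had its only departure in IL-4 replicate 2. The log2 differences were -0.02 and 0.15 (SE 0.11), and neither passed. The table sums all transcripts of the gene and cannot show a balance that differs between its forms. Mcts2, an imprinted copy gene in an intron of H13, had at most 5 reads on an allele.

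**Figure D2:**
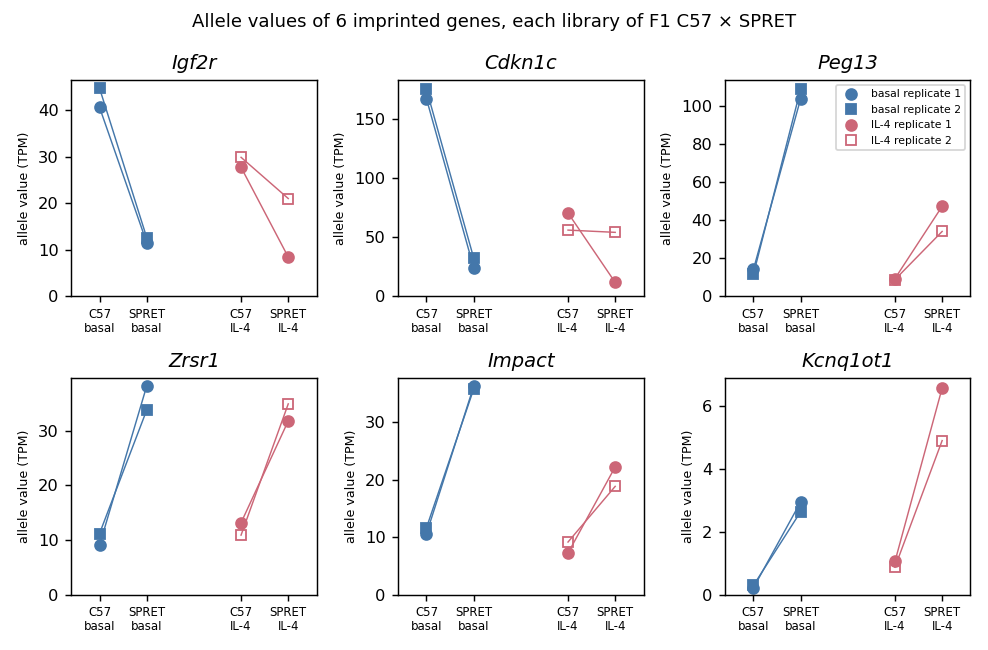
Allele values (TPM, from 0) of 6 members in each F1 C57 × SPRET library, where a line joins the C57 and the SPRET value of 1 library. The lines of Peg13, Zrsr1, Impact and Kcnq1ot1 run up to SPRET in all 4 libraries and those of Igf2r and Cdkn1c run down, nearly flat for Cdkn1c in IL-4 replicate 2 (56.0 and 54.1).

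The next question was whether IL-4 changed the allele balance. The change of the allele difference, IL-4 minus basal, passed for 0 of the 10 members and for 0 of all 12256 genes (percent called 0), while 1 member and 934 genes had an unadjusted p under 0.05. The member was Peg13, whose difference shrank by 0.93 (SE 0.20, adjusted p = 0.54, limma). Igf2r gave -0.69 (SE 0.37, adjusted p = 0.67) and Cdkn1c -1.29 (SE 0.79, adjusted p = 0.68), which rest on IL-4 replicate 2. With IL-4 replicate 1 left out they were -1.25 (adjusted p = 0.037) and -2.52 (adjusted p = 0.045), and these were the members that passed in that alternative. With IL-4 replicate 2 left out they were -0.13 (adjusted p = 0.54) and -0.07 (adjusted p = 0.92).

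With IL-4 the summed level of both alleles passed for Peg13 and Cdkn1c, 2 of 10 members, a share near the 10.5% of all genes. Peg13 dropped by 1.26 (SE 0.16, adjusted p = 0.0020) and Cdkn1c dropped by 1.06 (SE 0.17, adjusted p = 0.0038) on the log2 scale, while the median over all genes was -0.31, and relative to that median their values were -0.95 and -0.75. Kcnq1ot1 was 0.92 higher (SE 0.15, adjusted p = 0.0043), or 1.23 relative to the median, and Impact 0.70 lower, but neither passed 2-fold in values as deposited. When libraries were scaled by the median ratio of genes, Kcnq1ot1 was the member that passed, at 1.20, and Peg13 and Cdkn1c were at -0.91 and -0.71. On recovered reads, an alternative chosen after values were seen, Kcnq1ot1 (1.55) and Plagl1 (-1.11) passed, and Peg13 (-0.87) and Cdkn1c (-0.84) did not. The call of Cdkn1c was also lost without IL-4 replicate 1 (-0.85) and without basal replicate 2 (adjusted p = 0.051, limma), and Kcnq1ot1 passed without IL-4 replicate 2 (1.09). The drop of Peg13 lay mostly on the SPRET allele, which went from 104 and 109 to 47.3 and 34.1, while the C57 allele went from 14.1 and 11.5 to 9.31 and 8.76. For Kcnq1ot1 both alleles read higher in the 2 IL-4 libraries than in the 2 basal libraries. In the parental strains it was too low to be tested and showed no such rise. Its mean TPM at basal and after 24 hours of IL-4 was 0.031 and 0.031 in C57 and 0.074 and 0.063 in SPRET. In the separate time course these means were 0.116 and 0.124 in C57 and 0.247 and 0.239 in SPRET.

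In the C57 × NOD cross, Igf2r and Peg13 were the members with reads, and Igf2r in all 4 libraries and Peg13 in 3 of 4 were higher on the allele opposite to that of the C57 × SPRET cross. For Igf2r the C57 allele read 32.8 and 10.9 in basal cells and 2.98 and 25.3 after IL-4, below the NOD allele of the same library at 66.4, 37.8, 30.2 and 60.8. Its C57 share was 33.1, 22.3, 8.98 and 29.4%, from 72, 12, 3 and 29 C57 reads and 139, 40, 29 and 67 NOD reads. For Peg13 the C57 allele read 17.1, 10.2, 13.1 and 8.21 and the NOD allele 8.08, 7.11, 13.7 and 5.12, shares of 67.9, 58.9, 48.8 and 61.6% from at most 20 reads on an allele. The log2 differences of Igf2r were -1.35 (SE 0.54, adjusted p = 0.61) and -2.10 (SE 0.54, adjusted p = 0.34), and those of Peg13 were 0.73 (SE 0.31, adjusted p = 0.64) and 0.26 (SE 0.31, adjusted p = 0.76). In basal cells 0 members passed, against 0.287% of 5229 genes, with 0 members and 496 genes at an unadjusted p under 0.05. After IL-4 0 passed, against 0.229%, with 1 member (Igf2r) and 691 genes at an unadjusted p under 0.05 in limma. Airn read 13.8 and 54.7 on the C57 allele in basal cells, from 4 and 8 reads, and was listed at 0 on the NOD allele and in both IL-4 libraries. The exact 95% intervals of its C57 share start at 39.8 and 63.1%, the latter above an equal split. These intervals cover counting error only, and the recovered reads carry the authors' allele weighting. With so few reads the allele of Airn in this cross is therefore not settled. The difference between crosses was not tested because the tables were normalized separately. The methods describe the weighting of alleles for C57 × SPRET, and of C57 × NOD the study says only that it was handled alike. The gene length equals the genomic span for 11.4% of genes in the C57 × NOD table, against 99.5% in the other cross.

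**Figure D3:**
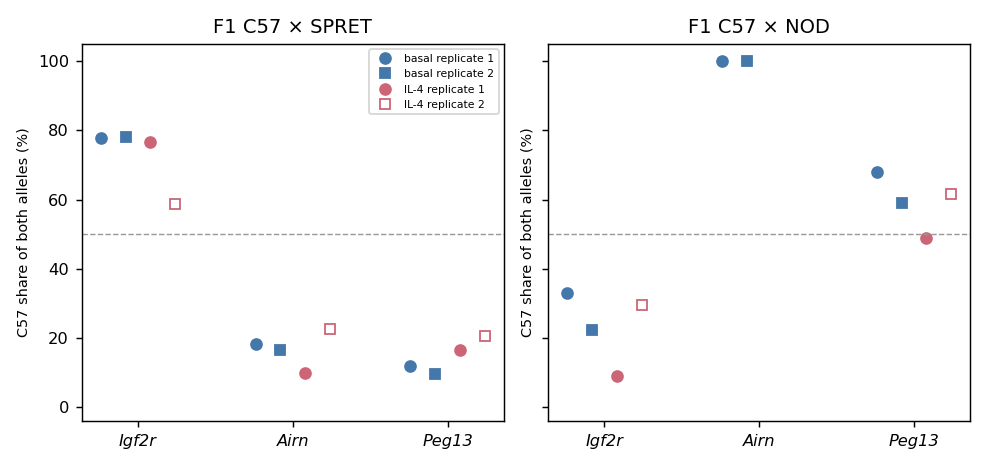
C57 share (percent) of Igf2r, Airn and Peg13 in each library of the C57 × SPRET and the C57 × NOD cross, with a line at equal alleles. Igf2r is at 58.7 to 78.0% with SPRET and at 8.98 to 33.1% with NOD, while Airn is at 9.76 to 22.5% with SPRET and rests on only 4 and 8 reads in the 2 libraries with NOD in which it had any.

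The parents show what the strains express when both chromosomes are of the same strain. Between C57 and SPRET, 1 of the 7 members tested was called in basal cells, against 18.1% of 11907 genes, and 1 after IL-4, against 20.6%. That member was Cdkn1c, at 33.2, 33.6 and 29.2 TPM in basal C57 and 6.21, 6.06 and 5.47 TPM in basal SPRET, a log2 difference of 2.25 (SE 0.14, adjusted p = 1.4e-13), and 1.85 (SE 0.14, adjusted p = 5.8e-12) after IL-4. C57 thus made 84.4% of the summed parental mean of Cdkn1c in basal cells, a level close to the F1 C57 shares of 87.3 and 84.4%. Igf2r was even between the parents, at 16.5, 20.5 and 14.8 TPM in basal C57 and 16.8, 16.2 and 16.0 TPM in basal SPRET, a difference of 0.06 (SE 0.11, adjusted p = 0.63) against 1.74 in the F1 alleles. Peg13 was likewise even, at 2.20, 3.18 and 2.21 TPM in C57 and 2.67, 3.01 and 2.91 TPM in SPRET, a difference of -0.14 (SE 0.12, adjusted p = 0.30) against -2.96 in the F1 alleles.

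For Zrsr1 and Impact the parents differed in the other direction from the F1 alleles. Zrsr1 read 4.92, 6.24 and 4.93 TPM in basal C57 and 2.33, 2.28 and 2.20 TPM in basal SPRET, a log2 difference of 0.96 (SE 0.09, adjusted p = 1.2e-09) just under the 2-fold limit, which it passed without replicate 1 (1.02). Impact read 7.79, 9.81 and 6.90 TPM in C57 and 4.76, 3.94 and 4.00 TPM in SPRET, a difference of 0.80 (SE 0.12, adjusted p = 1.7e-06). In both, all C57 libraries were above all SPRET libraries, whereas the SPRET allele was higher in all 4 F1 libraries. Airn read 2.05, 3.61 and 2.64 TPM in basal C57 and 0.115, 0.340 and 0.546 TPM in basal SPRET, the latter from about 1, 3 and 5 reads. The parental tables do not give Airn a single direction, since in the separate time course it was lower in C57, at 1.49 and 0.867 TPM in basal C57 and 2.25 and 3.24 TPM in basal SPRET, a log2 difference of -0.78 (SE 0.22, adjusted p = 0.0092, limma), and -1.35 (SE 0.22, adjusted p = 0.00021) at 1 hour. The F1 and parental tables use different gene lengths and were normalized separately, so the values are set side by side with no test between them.

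Of 813 genes that were called between F1 alleles in basal cells and tested in the parents, 738 (90.8%) had the same sign in the parents and 75 (9.23%) the opposite sign, including 51 (6.27%) whose parental adjusted p was under 0.05. Of the 5 members among the 813, Cdkn1c had the sign of a called parental difference, and Zrsr1 and Impact were among the 51. Igf2r and Peg13 also had the sign of the parents, but their parental differences were near 0 (0.06 and -0.14). That of Igf2r changed sign with a replicate left out. After IL-4 the numbers were 582 genes, 535 (91.9%) with the same and 47 (8.08%) with the opposite sign, of which 35 (6.01%) had a parental adjusted p under 0.05. Zrsr1 (parental difference 0.48) and Impact (0.51) were opposite there too.

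**Figure D4:**
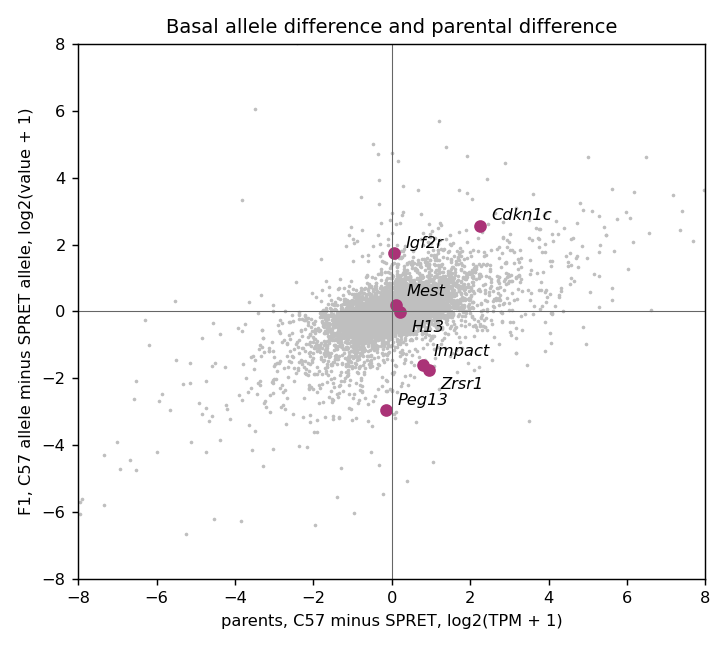
Log2 difference C57 minus SPRET between F1 alleles against that between parents in basal cells, 1 point per gene for 10801 genes tested in both, with the 7 members marked and 11 genes outside the axes. Igf2r and Peg13 lie near 0 in the parents and apart in the F1, and Zrsr1 and Impact lie in a quadrant of opposite signs.

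Kcnq1ot1, Plagl1 and Ndn were low in the parents. Kcnq1ot1 read 0.018 to 0.042 TPM in C57 and 0.060 to 0.091 TPM in SPRET, and was not tested. Plagl1 was listed at 0 in all 6 C57 libraries and at 0.026 to 0.100 TPM in SPRET, and Ndn at 0 in C57 and at 0.438 to 0.912 TPM in SPRET. Mest had a basal mean of 1.28 TPM in C57 and 1.12 TPM in SPRET, a log2 difference of 0.11 (SE 0.12). H13 was among the higher members, with a basal mean of 36.4 TPM in C57 and 31.0 TPM in SPRET, and its difference of 0.22 (SE 0.04) was under 2-fold.

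Between C57 and NOD, 2 of 7 members were called in basal cells, against 16.9% of genes, and 1 after IL-4, against 13.2%. The median difference over all genes was 0.30 in basal cells and 0.13 after IL-4. Cdkn1c was higher in NOD, at 138, 130 and 120 TPM in basal cells and 149, 174 and 153 TPM after IL-4, with log2 differences C57 minus NOD of -1.98 and -2.73 (SE 0.14). Igf2r was lower in NOD, at 7.01, 7.68 and 7.02 TPM in basal cells, a difference of 1.14 (SE 0.11, adjusted p = 1.9e-09), and 0.72 after IL-4. This is the opposite of the F1 C57 × NOD libraries, in which the NOD value of Igf2r was above the C57 value in 4 of 4 libraries. Relative to the median over all genes the basal difference of Igf2r was 0.84, and its call was lost when libraries were scaled by the median ratio of genes (0.77) and with a pseudocount of 5 (0.86).

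Across the 5 strains, Cdkn1c varied most, from a mean of 129 TPM (SD 9.09, n = 3) in basal NOD over 75.1 (SD 7.24, n = 3) in BALB, 32.0 (SD 2.43, n = 3) in C57 and 9.30 (SD 0.23, n = 2) in PWK to 5.91 (SD 0.39, n = 3) in SPRET. No basal group overlapped with the next. Igf2r was highest in BALB (28.4, SD 4.13, n = 3) and lowest in PWK (6.38, SD 0.83, n = 2), and C57 and SPRET overlapped each other in between. Basal Zrsr1 ran from 8.89 (SD 0.72, n = 3) in BALB over 7.35 in NOD, 5.36 in C57 and 3.36 in PWK to 2.27 (SD 0.07, n = 3) in SPRET. Basal Impact was highest in NOD (15.4, SD 1.00, n = 3) and lowest in SPRET (4.23, SD 0.46, n = 3). NOD overlapped BALB, at 13.2, and BALB overlapped PWK, at 12.1. Basal Peg13 formed a high group of BALB, SPRET and C57 (2.98, 2.86 and 2.53) and a low group of PWK and NOD (1.20 and 1.06), with overlap inside each group and none between them. Kcnq1ot1 was highest in PWK, at a basal mean of 0.189 (SD 0.03, n = 2). The response to IL-4 passed for 0 of 7 members in every strain, against 3.8% of genes for C57, 2.08% for BALB, 1.19% for NOD, 2.08% for PWK and 3.94% for SPRET. The difference of the response from that of C57 passed for 0 members as well, against 3.45% of genes for SPRET and 2.47% for NOD. It was not tested for BALB and PWK. The response of Cdkn1c itself was 0.71 in BALB and -0.45 in C57 on the log2 scale (SE 0.14). Over the 29 libraries and 11907 genes, the genes most alike in pattern by Pearson's r on log2(TPM + 1), given as a description, were Arrb1 for Igf2r (0.982), Zrsr1 with R3hdm1 (0.978), Peg13 with Deptor (0.960), Impact with Id2 (0.958), Cdkn1c with H1f0 (0.957), H13 with Pim1 (0.932) and Mest with Gmnn (0.844).

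**Figure D5:**
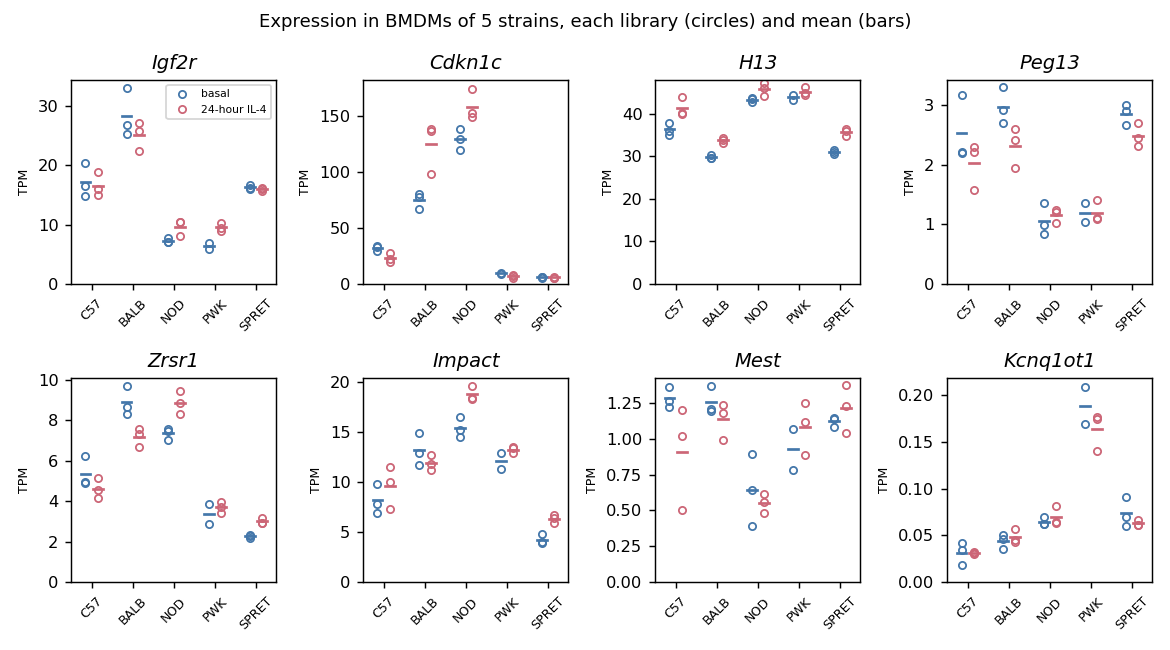
TPM (from 0) of 8 members in each library of the 5 strains, with basal and IL-4 libraries in separate colors and a bar at each mean. Cdkn1c reaches 174 in NOD and is lowest in PWK and SPRET, whereas basal H13 means lie between 29.9 and 43.9.

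In the separate C57 and SPRET time course, with 2 libraries per strain and time, Cdkn1c and Impact were called at all 4 times, among 8 members tested and against 18.8, 19.5, 18.6 and 20.5% of 12088 genes at basal, 1, 6 and 24 hours. Cdkn1c was 1.66, 1.80, 1.13 and 1.59 higher in C57 on the log2 scale (SE 0.14), and Impact 1.50, 1.87, 1.69 and 1.41 (SE 0.09). Impact read 31.6 and 28.9 TPM in basal C57 and 9.78 and 10.4 TPM in basal SPRET, so its direction was that of the first parental libraries, opposite to the F1 alleles. For other members the time course departed from the first parental libraries. The difference of Zrsr1 was 0.20 (SE 0.10, adjusted p = 0.11) at basal and 0.40 (SE 0.10, adjusted p = 0.0044) at 24 hours, Igf2r was 0.58 higher in C57 at basal (SE 0.05, adjusted p = 1.3e-06) and Peg13 was 0.51 lower (SE 0.09, adjusted p = 0.00028), all under 2-fold. Ndn was also called at basal, at -1.10, from 0 reads in C57 and about 35 in SPRET. It entered the test only through SPRET libraries, so this call is given as a description. With IL-4, 0 members passed at any time in either strain, against 0.877, 2.13 and 5.76% of genes at 1, 6 and 24 hours in C57 and 1.89, 4.57 and 5.62% in SPRET. Peg13 came nearest, falling in SPRET from 10.7 TPM (SD 0.51, n = 2) to 5.40 TPM (SD 0.06, n = 2) at 24 hours, a log2 change of -0.87 (SE 0.09, adjusted p = 6.6e-06), against -0.25 (SE 0.09, adjusted p = 0.041) in C57, from 7.25 to 5.95 TPM.

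Egr2 itself, a transcription factor of the late IL-4 program, read 23.6 and 21.3 TPM in basal control cells and 0.859 and 0.854 TPM in basal knockout cells, and 101 and 99.5 against 4.72 and 7.05 TPM at 24 hours. The reads recovered from these columns were 11.1 to 323% of the tag totals given in the table's header, against 94.4 to 98.1% in the strains, so headers and columns of this table do not match and the values are given as labelled. In the knockout cells Cdkn1c was the member called, at all 4 times. Its mean TPM in control and knockout cells was 171 and 65.0 at basal, 174 and 67.1 at 1 hour, 150 and 66.5 at 6 hours and 118 and 31.8 at 24 hours (n = 2 each), and the libraries did not overlap at any time. The log2 differences were -1.39, -1.36, -1.16 and -1.86 (SE 0.05), with adjusted p of 6.7e-09, 6.9e-09, 2.1e-08 and 2.1e-10 in limma. This is 1 of 7 members at each time, against 0.853, 1.06, 2.3 and 4.55% of 12079 genes. The methods do not state the strain background of either genotype, and Cdkn1c varied widely between strains. Basal control cells read 171 TPM, against a mean of 32.0 TPM in the basal C57 libraries of the parental table. A part of strain background in the knockout difference was not tested. Igf2r was 0.25 higher (SE 0.04, adjusted p = 0.0014) and Peg13 0.51 higher (SE 0.09, adjusted p = 0.0024) in basal knockout cells, both under 2-fold.

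Beyond the members, a list of other imprinted genes was counted in the C57 × SPRET alleles. Of 22 other genes known as paternally expressed, 21 were in the table and 6 could be tested. In each condition 1 was called, Airn, on the SPRET side, and the median log2 difference of the 6 was -0.41 in basal cells and -0.74 after IL-4, against -0.05 and -0.03 over all genes. The SPRET allele was higher for 6 of 6 in basal cells and 5 of 6 after IL-4. Of 35 other genes known as maternally expressed or adjoining them, 34 were in the table and 16 could be tested, with 1 called on the C57 side in basal cells and 2 after IL-4, and medians of 0.02 and 0.05. The C57 allele was higher for 9 and the SPRET allele for 7 in basal cells, and each for 8 after IL-4. The 16 include Kcnq1 and Trappc9, whose rows also hold the reads of Kcnq1ot1 and Peg13. They also include Commd1, whose span contains Zrsr1. Its basal log2 difference was -0.21, with C57 shares of 52.6 and 58.9% in its basal reads outside Zrsr1. Over all genes, 3.52% passed on the C57 side and 4.36% on the SPRET side in basal cells, then 2.24 and 3.21% after IL-4. The gene called in both conditions was Tspan32, a tetraspanin gene of the Kcnq1 cluster, with C57 shares of 85.7, 85.8, 81.8 and 71.5% and a log2 difference of 2.32 (SE 0.19, adjusted p = 0.0036) in basal cells and 1.64 (SE 0.19, adjusted p = 0.0111) after IL-4. For comparison, the 6 members known as paternally expressed, without Ndn, had medians of -1.60 and -1.32, and the 3 known as maternally expressed 1.74 and 1.05. In C57 × NOD, 1 of the paternally and 7 of the maternally expressed or adjoining genes could be tested, and none was called.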

How the data were processed

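The authors sequenced polyA RNA as 75-bp single-end reads, mapped them with STAR 2.5.3 to the strain genomes, shifted positions to mm10 with MMARGE 1.0 and computed the deposited TPM with HOMER 4.11.1. For F1 C57 × SPRET cells, the authors mapped reads to both parental genomes and weighted the counts of a transcript by the ratio of reads over mutations, times 10, for each allele. Columns of the authors' own fold changes and p-values were not used, nor were the 8 sample columns of a human table. Tables were tested separately.

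Allele differences and log2(TPM + 1) were fitted with limma 3.58.1 in R 4.3.3, with 1 mean per group, empirical Bayes moderation with a trend and Benjamini-Hochberg adjustment over all genes tested. All tests are two-sided. Genes entered with a summed allele value of at least 1, or 1 TPM, in at least 2 libraries. For allele values the trend runs over recovered reads, since on simulated data a trend over TPM called too many unchanged genes. All F1 values came out as whole reads within 0.1. These reads carry the authors' weighting, so limma with precision weights on them was only an added alternative. Replicates were not blocked. Figures were drawn with matplotlib 3.10.9.

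The members and lists were chosen with earlier results of these data known. Genes named are the 10 members, their overlapping genes, other imprinted genes called in both conditions of a cross and measured in all 4 libraries, and for each member the gene most alike over strains. Genes silent in a parent were added after values were seen. The alternatives were other pseudocounts, filters and scaling, a replicate block and leaving out libraries.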

Additional observations from a re-analysis of the deposited data

Results flagged for a closer look

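In 4 cases the IL-4 response of a member differed from C57 in SPRET or NOD. This was a test of the difference itself (limma interaction, adjusted over 11907 genes), and all 4 were under 2-fold. BALB and PWK were not tested against C57. No member passed the 2-fold limit, against 3.45% of genes for SPRET minus C57 and 2.47% for NOD minus C57. The median over all genes was itself 0.16 for SPRET minus C57 and 0.17 for NOD minus C57. The response of Zrsr1 was 0.48 higher on the log2 scale in SPRET than in C57 (SE 0.13, adjusted p = 0.0062) and 0.41 higher in NOD than in C57 (SE 0.13, adjusted p = 0.016). Zrsr1 read 4.92, 6.24 and 4.93 TPM in basal C57 and 5.13, 4.57 and 4.15 TPM after IL-4, while SPRET went from 2.33, 2.28 and 2.20 to 2.94, 3.18 and 2.94 TPM. The response of Cdkn1c was 0.74 higher in NOD than in C57 (SE 0.19, adjusted p = 0.0047), with C57 at 33.2, 33.6 and 29.2 TPM before and 22.3, 19.8 and 27.8 TPM after IL-4. The response of Igf2r was 0.42 higher in NOD than in C57 (SE 0.16, adjusted p = 0.046). Relative to the median over all genes, these differences were 0.32 for Zrsr1 in SPRET and 0.25 for Zrsr1, 0.57 for Cdkn1c and 0.25 for Igf2r in NOD.

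The C57 allele of Igf2r was the higher allele in 4 of 4 libraries of the C57 × SPRET cross and in 0 of 4 libraries of the C57 × NOD cross. This difference between the crosses was not tested.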

How the results depend on the processing

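Counts of members called depended on the processing most in the C57 × SPRET alleles, where the 7 basal calls became 5 with no filter, 4 with a pseudocount of 5 and between 0 and 7 with 1 library left out, and the 4 calls after IL-4 became 0 with no filter, 6 with a pseudocount of 0.1 (with Igf2r at 1.11 and Plagl1 at -1.85), 2 with a pseudocount of 5 and between 2 and 5 with 1 library left out. Leaving out a library leaves a group with a single library, which is assumed to vary like the other group. The change of the allele difference gave between 0 and 2 calls with 1 library left out. The 2 calls of the summed level became 1 under median scaling, 4 with a pseudocount of 0.1 and between 1 and 3 with 1 library left out. In the parents, C57 minus SPRET in basal cells gave 2 calls with a pseudocount of 0.1 and 1 to 2 with a replicate left out (2 without replicate 1), C57 minus NOD 1 call in basal cells with a pseudocount of 5 and 3 with 0.1 (with Peg13 at 1.19), and after IL-4 2 calls under median scaling and 1 to 2 with a replicate left out (2 without replicate 1). The 9 calls of the time course became 13 with a pseudocount of 0.1. The cause was not tested.

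Signs turned for values near 0 that were never called. The log2 difference of H13 in basal cells was 0.028 under median scaling and 0.0275 on recovered reads and lay between -0.050 and 0.014 with 1 library left out. After IL-4 it was -0.025 without IL-4 replicate 2, up to 0.32 with another library left out, and that of Mest lay between -0.078 and 0.57. The summed level of Zrsr1 was 0.32 under median scaling, 0.36 on recovered reads and -0.056 to 0.013 with 1 library left out. Peg13 after IL-4 in C57 × NOD lay between -0.063 and 0.59. The parental difference of Igf2r with SPRET lay between -0.065 and 0.15 in basal cells and between -0.041 and 0.12 after IL-4 with a replicate left out.

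Over all genes, calls ranged over the alternatives from 49 to 1194 for basal C57 × SPRET alleles (966 as reported and 1194 on recovered reads), 8 to 1030 after IL-4 (668 as reported and 1030 on recovered reads), 0 to 128 for the change (0) and 651 to 1661 for the sum (1292). For C57 × NOD alleles they ranged from 0 to 23 (15) and, after IL-4, 0 to 26 (12). In the parents they ranged from 1073 to 3027 (2156) and 1232 to 3421 (2457) against SPRET, and from 861 to 3319 (2011) and 766 to 2538 (1568) against NOD.

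Replicate numbers did not pair the libraries, with correlations of deviations of 0.052 for C57 × SPRET and 0.027 for C57 × NOD allele differences and a mean of 0.013 in the strains. With the replicate block, Igf2r after IL-4 passed in C57 × SPRET, at 1.05 with adjusted p = 0.037 (limma), which gave 5 members called, and no other call of a member changed. For the time course and for the libraries of Egr2, leaving out a replicate number in all groups leaves no residual spread. Leaving out single libraries, added after seeing the data, gave 9 and 4 calls of members there every time. The few reads of C57 × NOD and of Plagl1, Ndn and Mest limit what could be detected.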
